A study of Mus musculus with 6 samples.

Results

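The prominins are a small family of membrane proteins that cross the membrane several times, and the mouse genome has a pair of them, Prom1 and Prom2. They are 2 of 53379 annotated genes measured in mouse pancreatic tumour organoids, and they were chosen by name because their levels differed between the genotypes compared here. Prom1 encodes CD133, a surface protein widely used as a marker of stem, progenitor and tumour-initiating cells. Prom2 encodes its closest relative, found in epithelia. Both proteins sit on microvilli and other protrusions, bind cholesterol and are shed in vesicles. Prominin-2 is also known to help cells form multivesicular bodies that export ferritin, the iron storage protein, and so resist ferroptosis, a cell death driven by iron and lipid peroxidation. In the pancreas, prominin-1 lies on the apical face of duct cells.

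RNA came from epithelial organoids grown from KPC tumours in domes of matrigel, a basement membrane gel. The mice were of strain C57/Bl6 and carried KrasLSLG12D/+ and Pdx1-Cre in every group, so that Cre under the Pdx1 promoter removes the stop cassettes in pancreatic epithelium. Heterozygous libraries (n = 3) were Trp53LSLR172H/+, with the R172H allele beside a wild-type one. LOH libraries (n = 3) were Trp53LSLR172H/-, titled as loss of heterozygosity, the state in which the wild-type allele is gone. Organoid lines 6, 23 and 34 each gave 1 library of either genotype. The LOH libraries also carry the suffix "Nut" in their descriptions, whose meaning is not given, and its part cannot be told apart from that of genotype. Beyond the line number no label says that libraries came from separate animals, so p-values measure the spread between these libraries only. Ages are not given in the labels.

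Libraries held 13680458 to 27917277 expected counts, the estimated reads per gene. Trp53 itself had 76.3 to 86.5 CPM (counts scaled to the size of the library after TMM, a normalization between libraries) in heterozygous and 47.4 to 73.5 CPM in LOH libraries, a difference short of the 0.05 threshold (edgeR adjusted p 0.227). Gene counts pool R172H and wild-type transcripts, so this is no check of the lost allele. Epithelial markers (8 genes) summed to 4719 to 5515 CPM in heterozygous and 4867 to 9283 CPM in LOH libraries. Acinar markers (14 genes) summed to 1.23 to 1.93 CPM in heterozygous and 2.18 to 6.76 CPM in LOH libraries, fibroblast markers (11) to 0.0742 to 0.167 and 0.606 to 1.16 CPM, and endothelial markers (7) to 0.222 to 0.3 and 0.605 to 2.91 CPM. Endocrine markers (11) summed to at most 0.371 CPM, and Ptf1a, Ins1, Col3a1 and Emcn were at 0 in all 6 libraries. The leukocyte markers (11 genes) summed to 46.2 to 49.2 CPM in heterozygous and 23 to 48.1 CPM in LOH libraries, nearly all of it Cd14 and Cd68, with Cd4, Adgre1 and Lyz2 at 0. Cd68 had 1.7 to 1.84 CPM in heterozygous and 2.97 to 14.7 CPM in LOH libraries (edgeR adjusted p 0.0713). The part of these markers in the results was not tested.

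Prom2 (ENSMUSG00000027376.15) lies on the minus strand of chromosome 2, from 127526473 to 127541467 in GRCm38. The window upstream of its annotated coding transcripts is shown because Prom2 was the prominin with the larger ratio between genotypes. It is chr2:127541468-127541667, 200 bases of the minus strand from the RefSeq promoter table (GRCm38.p6), with GC box and CCAAT box letters on either strand in capitals.
Prom2 upstream window: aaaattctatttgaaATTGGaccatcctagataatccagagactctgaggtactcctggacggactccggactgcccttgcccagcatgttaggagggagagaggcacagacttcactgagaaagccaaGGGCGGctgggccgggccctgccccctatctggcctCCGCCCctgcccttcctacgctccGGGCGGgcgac
The RefSeq promoter window of Prom2, 250 bases before to 50 after its start, held 3 GC boxes (GGGCGG), which begin 121, 85 and 61 bases before the start. It also held 1 CCAAT box (CCAAT), 235 bases before the start. At least 1 GC box was present in 35.7% and at least 1 CCAAT box in 37.4% of 32851 such windows of the same length. The share of windows with 3 GC boxes was not counted. The window of Prom2 was 61.3% GC with 15 CpG dinucleotides, against medians of 52.7% and 7 over all windows.

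Prom1 (ENSMUSG00000029086.15) lies on the minus strand of chromosome 5, from 43993620 to 44102032. The window at its distal start (44101736) was 57.0% GC with 10 CpG, and held 1 GC box, 1 CCAAT box, 1 AP-1 site (TGANTCA, in 7.81% of windows) and 1 E-box (CACCTG, in 20.2%). The window at a proximal start (44094768) was 50.3% GC with 4 CpG and held 1 AP-1 site. The heat shock element GAANNTTC, found in 7.86% of all windows, had no match in any of the 3. Neither did the TEAD site GGAATG (14.7% of windows), the TATA box, spelled TATAAA (13.6%), or the p53 half-site consensus (8.36%). Both strands were searched. Letters in a window are a description, not a binding site.

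In the coding RNA, 2 short stretches set apart the main Prom1 transcripts (Prom1-203, Prom1-202 and Prom1-207), and their use is given further on. They are shown from the GENCODE transcript sequences (GRCm38, minus strand), with the exon in capitals and 15 bases of the flanking exons in lower case. The first is a 27-base exon at chr5:44058626-44058652, and the second a pair of exons of 24 and 69 bases within chr5:44000777-44001293.
Prom1 27-base exon: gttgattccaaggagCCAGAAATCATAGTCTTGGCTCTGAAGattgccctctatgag
Prom1 pair of exons: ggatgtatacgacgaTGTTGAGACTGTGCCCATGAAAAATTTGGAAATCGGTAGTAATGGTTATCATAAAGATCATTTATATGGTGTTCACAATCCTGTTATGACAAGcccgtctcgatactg
The coding lengths of 2574 bases without the 27-base exon and 2601 with it, and of 2481 without the pair, differ by whole codons.

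Prom1 was abundant in every library and higher in the LOH ones. Heterozygous lines 6, 23 and 34 had 369, 622 and 438 CPM, from 11070, 8386 and 13134 counts. In the LOH partners of those lines it reached 820.4, 806 and 903 CPM (14094, 21353 and 19387 counts). The groups did not overlap, and the heterozygous library of line 23 stood above the other heterozygous ones. The lowest LOH library was 1.3 times the highest heterozygous one. The heterozygous mean was 477 ± 131 CPM and the LOH mean 843 ± 52.2 CPM (SD, n = 3 each), a ratio of 1.77. The edgeR log2 fold change was 0.82 (SE 0.23). It is given without a test, because Prom1 was chosen with this contrast known. Within lines 6, 23 and 34 the LOH library had 2.22, 1.3 and 2.06 times the CPM of its heterozygous partner, so line 23 differed least. The spread among libraries was wider in the heterozygous group, with an SD of log2 CPM of 0.38 against 0.09 in the LOH group.

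Prom2 was low in every heterozygous library and more than 10 times higher in every LOH library. Heterozygous lines 6, 23 and 34 had 1.7, 1.26 and 1.77 CPM, from 51, 17 and 53 counts, with Poisson 95% intervals of 1.27 to 2.24, 0.735 to 2.02 and 1.33 to 2.31 CPM. In LOH it stood at 34.1, 22.9 and 28.8 CPM (586, 606 and 618 counts), with intervals of 31.4 to 37, 21.1 to 24.8 and 26.6 to 31.1 CPM. The heterozygous intervals overlapped one another, while those of the LOH libraries did not, with line 6 highest and line 23 lowest. These intervals hold counting error alone, as the reads have no molecular identifiers and may be copies. A count of 3 corresponds to 0.1 to 0.223 CPM, so the heterozygous level was low but above that floor. The ratio of the LOH mean (28.6 ± 5.62 CPM, SD, n = 3) to the heterozygous one (1.58 ± 0.276 CPM, SD, n = 3) was 18.1, and the edgeR log2 fold change was 4.16 (SE 0.28), also without a test. The lowest LOH library was 12.9 times the highest heterozygous one. Within lines 6, 23 and 34 the ratios were 20, 18.1 and 16.3, closer to one another than those of Prom1. Their heterozygous values rest on 51, 17 and 53 counts, so they carry more counting error than the ratios of Prom1. The closeness was not tested. In bulk RNA, fewer cells with a transcript and less of it per cell cannot be told apart.

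**Figure D1:**
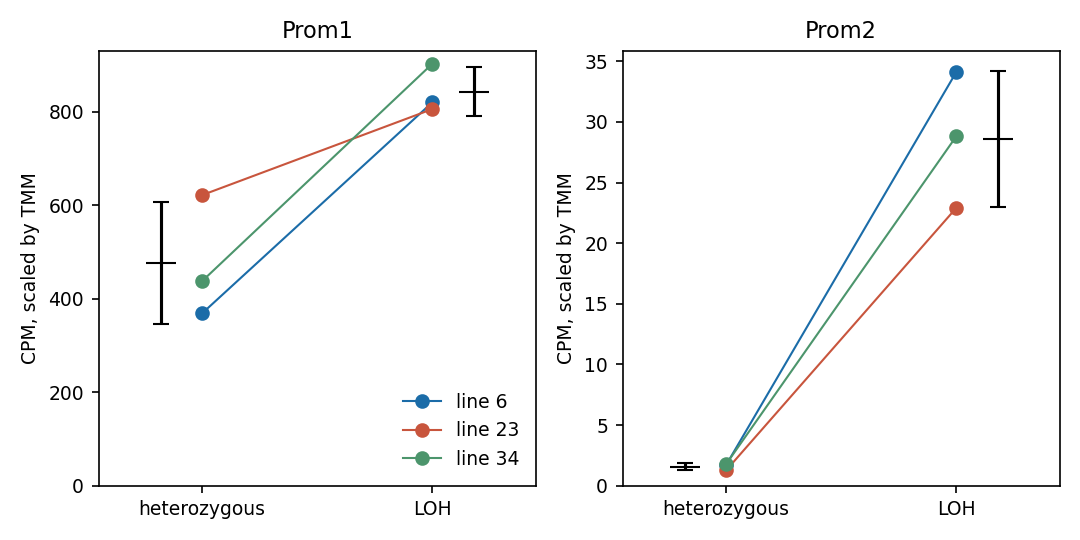
CPM of Prom1 (left) and Prom2 (right) in the heterozygous and LOH library of each organoid line, joined by a line of 1 colour, with the mean ± SD of each group (n = 3) in black beside the points; both axes start at 0 and have different scales. Every line ends higher in LOH, from 1.26 to 1.77 CPM up to 22.9 to 34.1 CPM for Prom2, and line 23 has the flattest slope for Prom1.

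Both prominins passed the expression filter, at a CPM cutoff of 0.386, and Prom2 lay above it in the heterozygous libraries too. Groups did not overlap in the higher direction for 16.4% of the 14537 genes tested, so both prominins share that separation with many genes. An edgeR log2 fold change at least as large as that of Prom2 was found in 0.702% of genes, and one at least as large as that of Prom1 in 18.3%. By the difference of mean CPM the order turned. Prom1 gained 366 CPM, a difference that 0.186% of genes equalled or exceeded, and Prom2 gained 27 CPM, equalled or exceeded by 6.18%. Prom2 had the larger ratio and Prom1 the larger difference. These shares describe the contrast by which the genes were chosen and support nothing further.

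**Figure D2:**
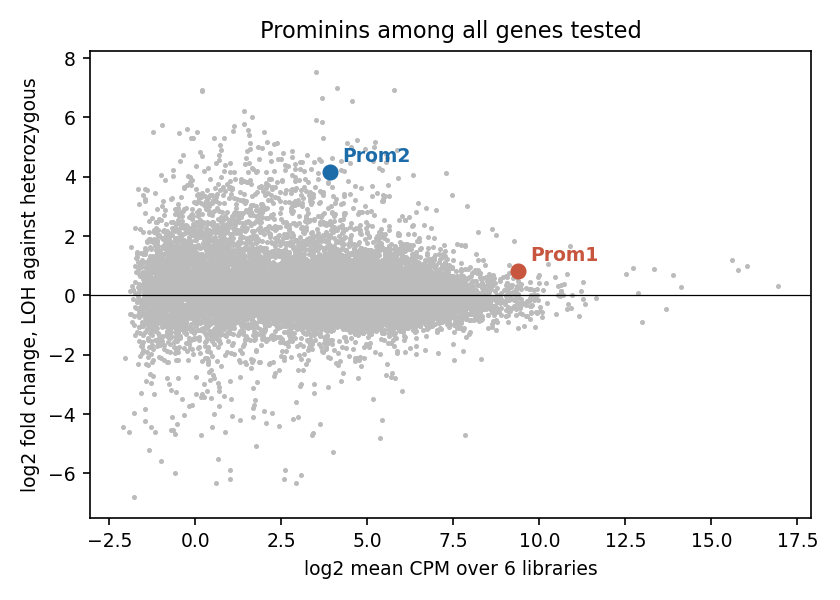
The edgeR log2 fold change of LOH against heterozygous libraries (vertical axis) against the log2 of mean CPM over the 6 libraries (horizontal axis), with 1 grey point for each of 14537 genes tested. Prom1 (red) lies among the most abundant genes at 0.82, and Prom2 (blue) lies at 4.16, near the upper edge of genes of its abundance.

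TPM, which also accounts for transcript length, allows the 2 genes to be compared. Prom1 had 141, 187 and 139.9 TPM in heterozygous lines 6, 23 and 34 and 226, 202 and 210.1 TPM in LOH libraries. Among 17313 protein-coding genes it ranked 501, 355 and 470 by TPM in the heterozygous and 239, 217 and 226 in the LOH libraries. Prom2 had 0.76, 0.3 and 0.44 TPM in heterozygous and 8.24, 4.79 and 5.12 TPM in LOH libraries, and ranked between 11285 and 11978 in the former and between 6064 and 7642 in the latter. Prom1 was by far the more abundant prominin in each library. Its TPM was 186, 622 and 318 times that of Prom2 in heterozygous lines 6, 23 and 34, and 27.4, 42.1 and 41 times in the LOH libraries. Prom2 therefore made up 0.161% to 0.535% of prominin TPM in heterozygous and 2.32% to 3.52% in LOH libraries. The ratio of mean TPM between genotypes was 1.36 for Prom1 and 12.1 for Prom2, both below the CPM ratio. Over the 11746 genes in both fits the median log2 fold change was 0.01 on TMM-scaled counts and -0.42 on TPM, and the log2 fold change of Prom1 on log2(TPM + 0.1) was 0.46. Some Prom2 values on the TPM scale rest in part on short transcripts. In heterozygous line 6, Prom2-204, a noncoding transcript with 3.4 counts, took 36.8% of the TPM of Prom2. It lowered the mean effective length to 2876 bases, against 3907 to 4424 in the other libraries. In LOH line 6 the noncoding Prom2-203 and Prom2-204 took 6.67% and 5.21% from 1.4 and 3.9 counts. In LOH line 23 Prom2-204 took 6.26% from 4.7 counts.

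The shares of the main Prom1 transcripts overlapped between the genotypes. Of 19 annotated transcripts 17 had counts in some library. The leading one, Prom1-203 (ENSMUST00000087441.10, 27 exons), took 74.1%, 76.1% and 73.6% of Prom1 TPM in heterozygous lines 6, 23 and 34 and 80%, 76.9% and 72.1% in LOH. The means were 74.6 ± 1.3% and 76.3 ± 3.97% (SD, n = 3 each), and the groups overlapped. Without the LOH library of line 6 the difference of 1.72 percentage points turned to -0.117. Prom1-202 (ENSMUST00000074113.12), which adds the 27-base exon, took 10.1 ± 1.13% and 9.54 ± 1.22%. Prom1-207 (ENSMUST00000177946.7), which starts at the second exon of Prom1-203 and lacks the pair of exons, took 9.73 ± 2.11% and 9.62 ± 3.74%. The split is an estimate by RSEM, which shares out reads that fit several transcripts.

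In the use of its alternative exons, the line with the lowest share of Prom1 TPM, line 34, was the same in both genotypes. Among coding transcripts that span it, those with the 27-base exon made up 10.7%, 12.6% and 9.83% of TPM in heterozygous lines 6, 23 and 34 and 9.87%, 11.6% and 9.35% in LOH. Line 23 was highest and line 34 lowest in both genotypes. Those with the pair of exons made up 88.2%, 90% and 86.6% in heterozygous and 91.6%, 90.8% and 84.7% in LOH libraries. Line 34 was lowest in both, while lines 6 and 23 changed places. Transcripts from the proximal start took 12.2% and 13.9% of Prom1 TPM in heterozygous and LOH line 34, against 7.03% to 8.79% in the other libraries. Prom1-207 by itself took 12.2% and 13.9% there. It starts at the proximal site, lacks the pair of exons and counts among the transcripts that span the 27-base exon. The shares are therefore not separate results. Transcripts from the distal start took 82% to 90.1%. No test was made of these shares, and they rest on 1 library per line and genotype.

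Prom2 had 2 main coding transcripts of 4 annotated. Prom2-201 (ENSMUST00000028855.13, 2505 coding bases) and Prom2-202 (ENSMUST00000103214.2, 2463 coding bases) differ in where the first exon begins, in an exon of 73 or 31 bases near the 3′ end, and in the last exon. Prom2-201 took 22.4%, 41.9% and 54.5% of Prom2 TPM in heterozygous lines 6, 23 and 34 and 52%, 48.4% and 64.5% in LOH. The means were 39.6 ± 16.2% and 55 ± 8.41% (SD, n = 3 each), with overlapping groups. Prom2-202 took 48.1 ± 8.94% and 39 ± 5.47%. The heterozygous shares divide 17 to 53 counts, and the difference of 15.3 percentage points for Prom2-201 was 6.72 without heterozygous line 6. In TPM, Prom2-201 went from 0.18 ± 0.0557 to 3.3 ± 0.985 and Prom2-202 from 0.23 ± 0.07 to 2.32 ± 0.595 between the genotype means, so both coding transcripts were higher in LOH.

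**Figure D3:**
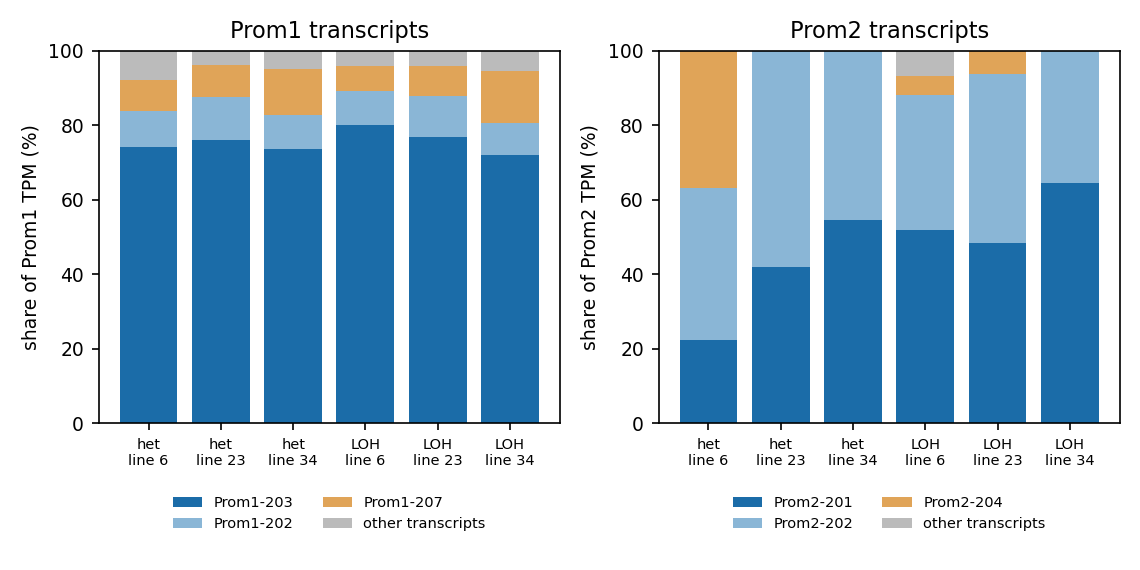
Share of each gene's TPM (vertical axis, percent) taken by its 3 main transcripts and by all others, for Prom1 (left) and Prom2 (right), with 1 bar per library (het, heterozygous). Prom1-203 fills 72.1% to 80% of every Prom1 bar, while the Prom2 bars vary, with 36.8% for Prom2-204 in heterozygous line 6.

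Levels of Prom1 and Prom2 across the 6 libraries correlated with r = 0.8508 (Pearson, log2 CPM), a description over libraries that share genotype and line. Of 11793 other protein-coding genes that averaged 1 CPM or more, Prom2 ranked 727 in likeness to Prom1, and Prom1 ranked 1039 in likeness to Prom2. Genes with the pattern nearest to Prom1 were Ube2l6 (r = 0.9974), Chmp5, Nrbp1, Lamtor2 and Ndufv3 (0.9909). Those nearest to Prom2 were Lck (r = 0.9968), Synj2bp, Adamtsl5, Slc9a4 and Ankrd22 (0.9941).

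Genes next to the prominins were examined to see how far along the chromosome the difference reached. Among the nearest 3 tested genes on each side of either gene, 0 of 12 passed the edgeR test at an adjusted p of 0.05, where 5.21% of all genes tested passed in either direction. At an unadjusted p under 0.05 there were 3 of 12 (Cd38, Stard7 and Mal), where 25.3% of all genes had one. With DESeq2 1 of 12 passed after adjustment (Cd38), where 13.7% of genes with an adjusted p did. Neither count stands apart from the whole table. Cd38, an NAD-consuming surface enzyme 81245 bases from Prom1, had 32.7 ± 7.98 and 95.7 ± 50.6 CPM (SD, n = 3 each; log2 fold change 1.55, edgeR adjusted p 0.073). Fgfbp1, which is nearer to Prom1, had a log2 fold change of 0.56 (edgeR adjusted p 0.404). Zfp661, the nearest to Prom2 at 33195 bases, had one of 0.37 (edgeR adjusted p 0.478). No annotated gene overlaps Prom2. Prom1 overlaps Gm42716 on its own strand and Gm16401 on the opposite one, with at most 113 and 77 counts in a library against 8386 to 21353 for Prom1. The strand setting of the counting was not given in the sources used here.

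Genes around prominin biology were described from 5 lists, read against the whole table. In the edgeR quasi-likelihood test 516 genes were higher (3.55%) and 241 lower (1.66%) in LOH libraries. Limma on log2(TPM + 1) called 280 higher and 1631 lower. Of the 99 list genes tested, 5 rose and 5 fell (10.1%), with a median log2 fold change of 0.16, against 0.06 over all genes tested. With the line number as a block 3 rose and 2 fell, where 1.22% of all genes were higher and 0.248% lower (1.47% together). Without any 1 of the heterozygous libraries edgeR called 0 genes in the whole table, and 26, 23 and 21 of 103 list genes had an unadjusted p under 0.05 without lines 6, 23 and 34 (25.2%, 22.3% and 20.4%, against 19.6%, 17.2% and 15% of all genes). Without LOH lines 6, 23 and 34 it called 20, 9 and 15 list genes. These were 20.2%, 9.09% and 14.6% of the list genes tested, against 16.2%, 3.02% and 5.27% of all genes.

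The list closest to where prominins sit, protrusions and cholesterol-rich membrane domains, had 1 of 23 tested genes past the threshold (median log2 fold change 0.14). That is 4.35%, against 5.21% of all genes tested. Podxl, an anti-adhesive sialomucin of apical membranes, fell from 73 ± 0.509 to 24 ± 8.31 CPM (log2 fold change -1.61, SE 0.27, edgeR adjusted p 0.0267, 0.0675 with the block). Ezr, the linker between microvillar membrane and actin, had a log2 fold change of 0.13 (edgeR adjusted p 0.792). Its sign turned on leaving out LOH line 34 (-0.22) and on log2(TPM + 1) (-0.32), a scale on which the whole table lies lower. The tweety proteins Ttyh1, Ttyh2 and Ttyh3, which resemble prominins in their membrane spans, had log2 fold changes of -0.39, 0.07 and -0.36, none past the threshold. Those of Ttyh1 and Ttyh3 were -0.11 and -0.67 without LOH line 23, and -0.73 and -0.17 without LOH line 6. That of Ttyh2 turned to -0.05 with the block and to -0.39 on log2(TPM + 1).

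Of 25 tested genes of multivesicular bodies, iron storage and ferroptosis, 2 rose and none fell (8% against 5.21% of all genes, median 0.13). Slc40a1, ferroportin, the exporter of iron from cells, rose from 18.5 ± 0.877 to 159 ± 81.6 CPM (log2 fold change 3.1, SE 0.37, edgeR adjusted p 0.0164, 0.0341 with the block). Its LOH libraries had 253, 114 and 109 CPM in lines 6, 23 and 34, so line 6 was highest. Rab27a, a GTPase that docks multivesicular bodies at the plasma membrane, rose from 5.51 ± 0.648 to 19.6 ± 3.11 CPM (log2 fold change 1.83, edgeR adjusted p 0.0164, 0.0537 with the block). The ferritin genes did not pass in edgeR. Fth1 had 356 ± 36.1 and 391 ± 113 CPM (log2 fold change 0.13), which turned to -0.29 on log2(TPM + 1), and Ftl1 had 2059 ± 221 and 1484 ± 162 CPM (-0.47, edgeR adjusted p 0.164). On log2(TPM + 1), where the whole table lies lower, Ftl1 passed in limma (-0.86, adjusted p 0.028). Tfrc, the transferrin receptor, had a log2 fold change of 0.29 that was -0.19 on log2(TPM + 1).

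Among 19 tested progenitor and tumour-initiating cell markers, the company in which Prom1 is usually listed, 1 rose and 1 fell (10.5%, median 0.53). Over all genes tested the share was 5.21%. Aldh1a3, a retinaldehyde dehydrogenase, rose from 2.79 ± 0.319 to 16.3 ± 5.71 CPM (log2 fold change 2.54, edgeR adjusted p 0.0164, 0.0397 with the block). Abcg2, the drug efflux pump of side population cells, fell from 13.4 ± 0.909 to 0.754 ± 0.378 CPM (log2 fold change -4.16, edgeR adjusted p 0.0108, 0.0318 with the block). Cd44, Cd24a, Epcam and Sox9 had log2 fold changes of -0.73, -0.49, 0.7 and 0.53, none past the threshold in edgeR. Cd24a passed in limma on log2(TPM + 1), where the whole table lies lower (-0.87, adjusted p 0.0214). Without LOH line 34 the value of Cd44 was -1.27 and that of Epcam 0.4, and without LOH line 6 that of Cd44 was -0.43. On log2(TPM + 1) Cd44, Epcam and Sox9 had -1.23, 0.26 and 0.13.

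Of the 5 lists the duct markers had the highest share of calls, with 1 of 17 tested genes rising and 3 falling (23.5%, median -0.21). That share rests on 4 genes, and 5.21% of all genes tested passed. Tspan1, a tetraspanin, rose (log2 fold change 2.53, edgeR adjusted p 0.0225). Ambp, Aqp1 and Onecut1, which encode a plasma protein precursor, a water channel and a duct transcription factor, fell (log2 fold changes -4.82, -2.31 and -4.33; edgeR adjusted p 0.0284, 0.0182 and 0.0365). Leaving out LOH line 23 ended the call of Ambp (edgeR adjusted p 0.069), and leaving out LOH line 34 that of Onecut1 (0.0747). With the block 2 of 17 passed, as did 2 of the 19 progenitor markers, where 1.47% of all genes did. The 2 duct markers were Ambp and Cftr, the chloride channel (edgeR adjusted p of Cftr 0.0602 without the block and 0.0431 with it). Krt19 had a log2 fold change of 1.07 (edgeR adjusted p 0.204), which was 0.45 without LOH line 34 and 0.43 on log2(TPM + 1). Of 15 tested factors studied as regulators of prominin genes, 1 rose (6.67% against 5.21% of all genes, median 0.03). Epas1, which encodes HIF-2 alpha, rose from 14.2 ± 2.79 to 37.7 ± 6.8 CPM (log2 fold change 1.41, edgeR adjusted p 0.0267, 0.0922 with the block). It also missed the threshold in edgeR without LOH line 23 (adjusted p 0.0507) and in limma on log2(TPM + 1) (0.0542). Hsf1, the heat shock factor studied as a regulator of Prom2, had 29.9 ± 2.88 and 30.6 ± 6.71 CPM (log2 fold change 0.03). On log2(TPM + 1), where the whole table lies lower, that of Hsf1 was -0.33.

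**Figure D4:**
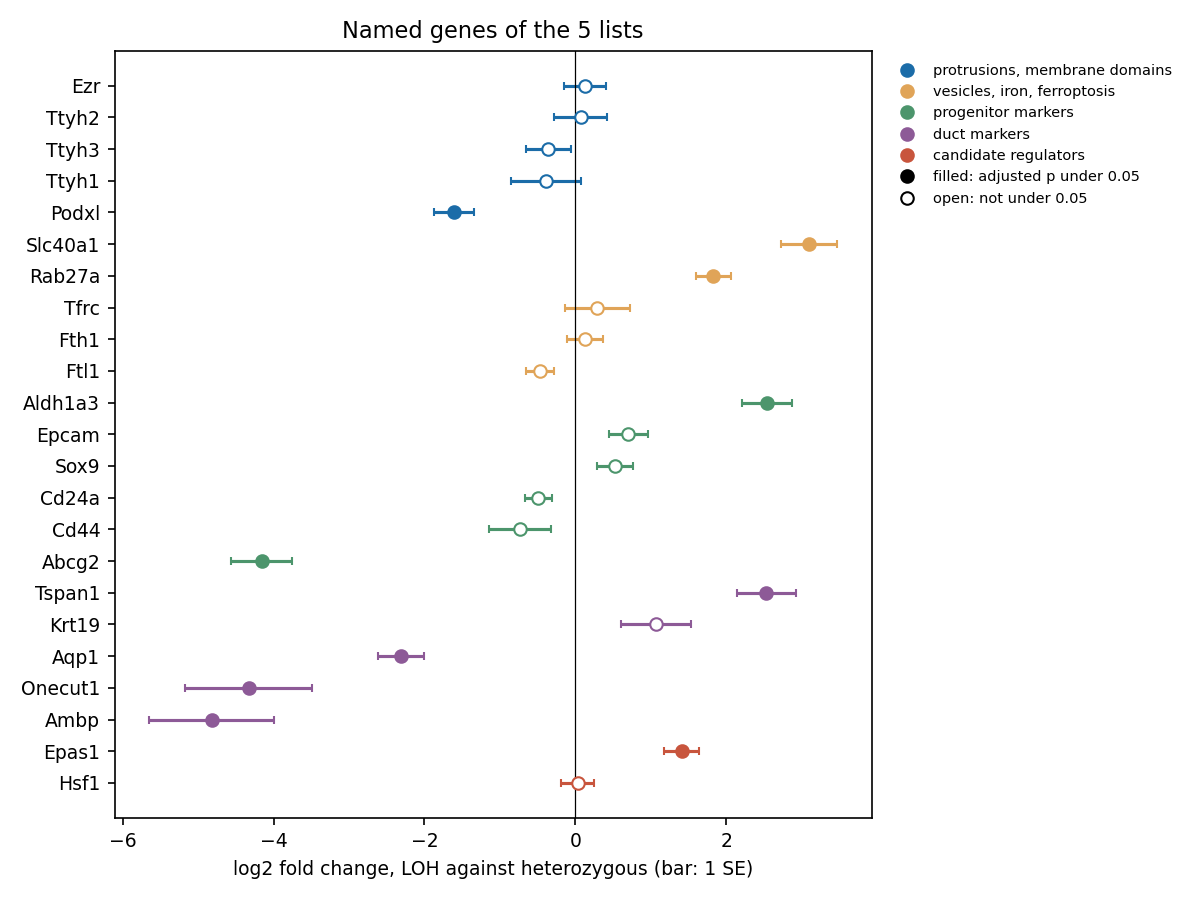
EdgeR log2 fold change of LOH against heterozygous libraries (horizontal axis, bars 1 SE, n = 3 each) for the 23 named genes of the 5 lists, coloured by list. Filled points have an edgeR adjusted p under 0.05, namely 5 genes to the right of 0 and 5 to the left, with Slc40a1 at 3.1 and Ambp at -4.82 at the ends.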

How the data were processed

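The authors deposited expected counts per gene and per transcript, RSEM estimates by the file headers. TPM and the percent of a gene taken by each transcript were also deposited by the authors; the shares here were recomputed from the deposited TPM. The authors' normalized signal tables (23525 genes, 17313 of them in a protein-coding table) named the genes. The effective length, another deposited value, is in bases. The submitters' processing notes list FastQC 0.11.5, STAR 2.5.2b, RSEM 1.3.0, DESeq2 1.44.0 and GRCm38.p5. GENCODE release 16 is named by the deposited tables. Coordinates came from release 21, which held 53274 of 53379 gene identifiers.

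Groups and line numbers came from the titles. Expected counts were rounded, filtered with filterByExpr (14537 genes), scaled by TMM and tested two-sided in edgeR 4.0.16 (quasi-likelihood, R 4.3.3), Benjamini-Hochberg adjusted, threshold 0.05. Log2 CPM used a prior count of 2, and the SE is the log2 fold change over the root of F. Other settings tried were upper quartile or RLE scaling, a minimum of 10 counts per library or no filter, DESeq2 1.42.0, limma 3.58.1 on log2(TPM + 1) and log2(TPM + 0.1), the line as a block, each library left out and shares of counts. Of these fits only the main edgeR one was tested on simulated data. Figures used matplotlib 3.10.9.

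Libraries with the same number come from 1 line by their titles, which pairs them. Their deviations from the group means correlated, across genes, at -0.3, 0.01 and 0.29 in lines 6, 23 and 34.

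The prominins and the lists were chosen with earlier results of these data known. Named genes were Prom1 and Prom2, 14 genes of prominin biology given whatever their values, up to 3 higher and 3 lower called genes of each list by smallest p, the 5 coding genes nearest in pattern to each prominin and the nearest 3 tested genes on each side. Cftr was named outside that rule, after its values were seen. Depth ran from 13680458 to 27917277 counts.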

Additional observations from a re-analysis of the deposited data

Results flagged for a closer look

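For these genes the LOH library lay above its heterozygous partner in some lines and below it in others. The contrast between lines was not tested, as a line holds 1 pair of libraries. Of 23 named list genes compared over the lines, 8 had both signs. All 8 were among the 13 that did not pass the edgeR threshold. In the 10 that passed, and in both prominins, the groups did not overlap, so both signs could not occur. The absence of both signs in them is therefore no separate result. On the log2 scale the lines spanned 2.23 for Tfrc (-0.17, 1.6 and -0.63 in lines 6, 23 and 34). They spanned 2.22 for Krt19 (0.99, -0.33 and 1.89) and 1.91 for Cd44 (-1.77, -1.05 and 0.14). The span was 1.33 for Ttyh3, 1.3 for Ttyh2, 1.08 for Ezr, 0.81 for Fth1 and 0.45 for Hsf1.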

How the results depend on the processing

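The prominins were higher in LOH libraries under all 14 alternatives. Their groups did not overlap in CPM or in TPM, so leaving out 1 library could not turn the direction. The genes were also chosen by this contrast, so the shared direction is no separate support. The log2 fold change of Prom1 was 0.79 to 0.86 with all libraries on counts, and 0.64 to 1.05 with 1 library left out. That of Prom2 was 3.97 to 4.3 with 1 library left out. On log2(TPM + 1) they were 0.46 and 2.21, and on log2(TPM + 0.1) 0.46 and 3.39. The pseudocount draws the value of a low gene such as Prom2 toward 0.

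Counts of calls moved more. The whole table gave 2249 genes with DESeq2, 213 with the line as a replicate block, 1911 and 1753 with limma on log2(TPM + 1) and log2(TPM + 0.1), and 0 to 2449 with 1 library left out. List genes called were 23 with DESeq2 (22.1%, against 13.7% of all genes with an adjusted p), 5 with the block (5.05% against 1.47%), 19 and 18 with limma (20% against 16% and 18.9% against 14.7%) and 0 to 20 with 1 library left out. The 0 came without any 1 heterozygous library, where 2272 to 2966 genes had an unadjusted p below 0.05. The cause was not tested.

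The share of Prom1-203 differed by -0.117 to 3.83 percentage points and that of Prom2-201 by 6.72 to 22.8 with 1 library left out. Genes that passed in no fit and turned in sign were Hsf1 (0 with no filter, -0.33 and -0.35 on the TPM scales, -0.2 to 0.15 with 1 library left out), Fth1 (-0.29 on both TPM scales, -0.1 to 0.32 with 1 left out), Tfrc (-0.19 and -0.2; -0.09 to 0.59), Ezr (-0.32 and -0.33; -0.22 to 0.31) and Ttyh2 (-0.39 and -0.43; -0.46 to 0.33; -0.05 with the block). On TPM the whole table lay lower, with a median log2 fold change of -0.42, against 0.01 on TMM-scaled counts over the same genes. A turn of sign on the TPM scales includes that shift of the whole table. The block gave 0.86 for Prom1 and 4.17 for Prom2. Heterozygous Prom2 rests on 17 to 53 counts, which limits its transcript shares.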
